A study of Schmidtea mediterranea with 58 samples.

Results

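The 106 regions described here were those listed for a difference in H3K4me3 between *set1* RNAi and *unc* RNAi control in Xins cells of the planarian flatworm *Schmidtea mediterranea*, out of 16158 regions in 7 such tables of the same study. The members were every region of the Xins *set1* table, counted once for each scaffold, start and end, and the values of all 4 libraries were read again from that table. They lay on 104 scaffolds and were paired with 143 gene identifiers in 144 lines. The mark was measured by ChIP-seq, that is, by sequencing the DNA that an antibody against trimethylated lysine 4 of histone H3 pulls down from cross-linked chromatin.

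H3K4me3 is a mark of chromatin near the starts of genes that are transcribed. It is laid down by methyltransferases of the Set1 and MLL families, which act within complexes of the COMPASS type, and Set1 enzymes are known in yeast and animals for the mark at the starts of active genes in general. The *set1* and *mll* genes of the planarian are named after these families. Planarian cells are commonly sorted by DNA content and by their response to irradiation: X1 is the usual name of the dividing cells that irradiation removes, most of them stem cells (neoblasts), while the Xins fraction survives irradiation and is largely made of differentiated cells.

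Worms were fed bacteria that expressed double-stranded RNA against *set1* for 6 days, and the control worms received *unc* RNAi, for which the number of days is not given in the sources used here. Each group had 2 H3K4me3 libraries and 2 input libraries, made from chromatin without immunoprecipitation. The study also compared *set1* RNAi with its own *unc* control in X1 cells and in whole worms, *mll* RNAi of 9 days in the same 3 materials, and untreated X1 with untreated Xins cells. Nothing stated that the libraries of a group came from separate worms, so p-values measure only the spread between these libraries. The files pair gene identifiers with no names, so the label Xins could not be checked against marker genes. The Xins fraction holds many cell types, and a change in their proportions and a change in the mark within each cell cannot be told apart in these libraries.

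The depth could be read from the values themselves, because the normalized read counts of a library were whole multiples of the worth of 1 read in 91 of the 106 regions. In these, a region held between 23 and 85 reads in the RNAi library listed first and between 22 and 100 in the one listed second, with medians of 46.0 and 48.0. The control libraries held between 48 and 119 and between 51 and 125 reads, with medians of 67.0 and 73.0. Every value in these regions thus rested on at least 22 reads. The normalization scaled the libraries unequally, since 1 read was worth between 1.01 and 1.05 normalized units in the first RNAi library, between 0.78 and 0.81 in the second, and between 1.03 and 1.19 in the controls.

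H3K4me3 was lower after *set1* RNAi at all 106 regions. Both RNAi libraries lay below both controls at each of them (100% of the regions tested), but the regions had been listed for a difference on these same libraries. In the RNAi libraries the median region had normalized read counts of 46.4 and 38.5, against 77.4 and 78.1 in the controls. The level after RNAi ranged from 33.2% to 64.6% of the control, with a median of 55.7%, and 20 regions kept less than 50% of it. On the log2 scale the median change was -0.83, with quartiles of -0.95 and -0.76. No region was lost altogether: the lowest value in any RNAi library was 14.4.

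Limma, applied to log2(normalized count + 1) with Benjamini-Hochberg adjustment over the 106 regions, called all 106 lower at an adjusted p-value below 0.05 (100% of those tested), with adjusted p-values from 9.75e-06 to 0.0248. The authors had listed the regions on these very libraries, so this count is not independent evidence and says only that each difference exceeded the spread between libraries. An exact permutation test of 2 against 2 libraries cannot go below p = 0.333 for a region by itself. Calls were lost when either control library was left out, although all 106 regions stayed lower in both fits. In these fits the spread came from the RNAi libraries alone. The median spread that limma used rose from 0.21 with all 4 libraries to 0.32 without the control listed first and 0.31 without the one listed second.

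**Figure D1:**
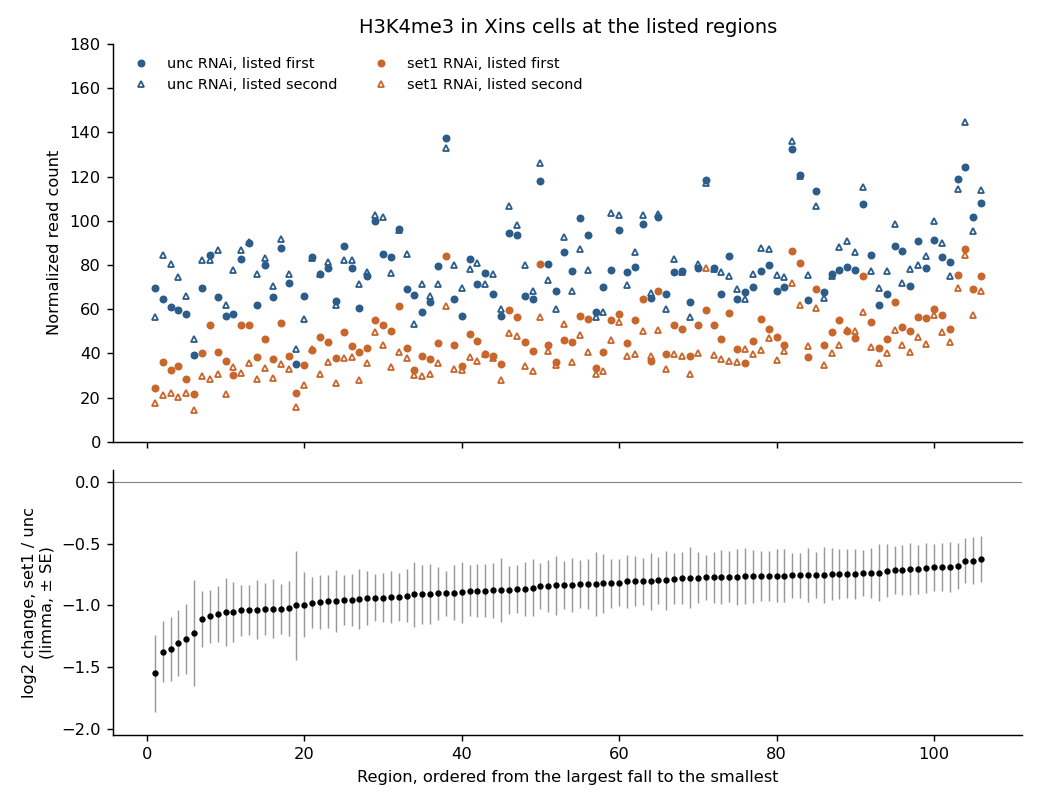
Normalized read counts of the 4 Xins libraries (upper panel, circles for the library listed first and open triangles for the second) and the limma log2 change with its standard error (lower panel) at the 106 regions, ordered from the largest fall to the smallest. The control points lie above the RNAi points at every region, and the change runs from -1.55 to -0.63.

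The libraries of the RNAi group differed from each other in a regular way. The library listed first was above the second at 96 of 106 regions, with a median ratio of second to first of 0.80 (range 0.54 to 1.31). The controls showed no such order: the second was above the first at 67 regions, and their median ratio was 1.05. Taken by itself, the first RNAi library lay 0.70 below the controls on the log2 scale (median over the regions) and the second 0.98, and each was below the control mean at all 106 regions. The direction was shared by both libraries while the size, in normalized units, was not. The shared direction is not independent evidence, because the regions had been listed on these same libraries. The recovered reads had medians of 46.0 in the first and 48.0 in the second library. The normalization gave 1 read between 1.01 and 1.05 units in the first and between 0.78 and 0.81 in the second. What part this scaling has in the offset was not tested. The fit pooled the spread of all regions (212 degrees of freedom), whereas this regular offset means that the regions did not vary independently of each other.

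The largest fall was at scaffold v31.002905, 44601 to 45700, 115 bases from the start of SMED30005554. Its normalized counts in the RNAi libraries were 24.2 and 17.6, against 69.4 and 56.2 in the controls. Both RNAi libraries were far below both controls, and 33.2% of the control level remained (log2 change -1.55 ± 0.31, SE, n = 2 against 2, limma adjusted p = 1.98e-05). Enrichment over input fell from 7.10 to 2.58. This locus was also the one with the largest fall in whole worms among the loci shared with them, as described further on.

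At 4 more regions the level fell to about 40% of the control. The region at v31.008091, 6601 to 7600, 314 bases from a gene start, had 36.2 and 21.3 after RNAi against 64.5 and 84.4 (log2 change -1.38 ± 0.25, limma adjusted p = 9.75e-06). The region at v31.001482, 44601 to 45700, which contained a gene start, had 32.4 and 22.0 against 60.9 and 80.3 (-1.36 ± 0.26). In both, the lower control still stood well above the higher RNAi library. At v31.003829, 27501 to 28500, the counts were 34.2 and 20.2 against 59.4 and 74.6 (-1.31 ± 0.27), and at v31.002441, 49701 to 50700, they were 28.3 and 22.0 against 57.8 and 66.1 (-1.27 ± 0.28). The former lay 1281 bases from its gene start, and the latter contained one.

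The other 5 of the 10 largest falls lay between -1.22 and -1.05. That at v31.054102, 201 to 1700, had low normalized counts, with 21.6 and 14.4 after RNAi against 39.0 and 46.3. Its reads could not be recovered, and its standard error of 0.43 was among the widest (limma adjusted p = 0.00497). The remaining 4 were at v31.003246, v31.001440, v31.002315 and v31.004117. At v31.001440, 44701 to 45700, the RNAi libraries differed most from each other, at 52.6 and 28.3, while the controls were close, at 84.3 and 82.4. A gene start lay inside 5 of these 10 regions. Their median control count was 68.8, below the 77.0 of all 106 regions.

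Of the 5 smallest falls, 4 were at regions with a control level above the upper quartile. At v31.006763, 9301 to 10600, over a gene start, the RNAi libraries had 74.9 and 68.1 and the controls 107.8 and 113.7 (log2 change -0.63 ± 0.18, limma adjusted p = 0.000973). At v31.001733, 37101 to 38400, they were 69.1 and 57.5 against 101.9 and 95.4 (-0.64 ± 0.19). The groups stayed apart even here, with 64.6% and 64.1% of the control level remaining. The other 3 were at v31.033938, v31.000415 and v31.000111, with log2 changes of -0.64, -0.68 and -0.69. Across the 106 regions Spearman's rho between the log2 change and the control level was 0.33, as a description, because regions share the same 4 libraries, a fold change contains the control level, and the list holds no region with a smaller fall.

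The control level itself varied little. Its quartiles were 68.2 and 86.6, and its extremes 38.5 and 135.3. The 5 regions with the highest control level, at v31.002536, v31.033938, v31.000076, v31.000684 and v31.001170, kept between 53.8% and 63.8% of it. At v31.002536, 52301 to 54200, the counts were 84.1 and 61.5 against 137.5 and 133.0, and this was also the longest region, of 1900 bases, with a gene start inside. The lowest control level was at v31.041904, 1301 to 2400, where the RNAi libraries had 22.2 and 15.7 and the controls 35.2 and 41.9, and the fall to 49.2% of the control had the widest standard error in the list, 0.44 on the log2 scale. Its adjusted p-value, 0.0248 by limma, was the largest in the list.

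Most of the lowered regions lay at or near a listed gene start, as did most regions of the other tables. A listed gene start lay inside 65 of the 106 regions (61.3%, exact binomial interval 51.4% to 70.6%, which covers counting error only). It lay 1 to 200 bases away from 18, 201 to 1000 bases away from another 18, and more than 1000 bases away from 5. With a limit of 1000 bases, 101 regions (95.3%) were at a gene start, close to the 92.6% in the X1 and 94.9% in the whole-worm *set1* tables. The share with a start inside was 66.8% in the whole-worm table. Within the list the size of the fall did not follow these classes, and their ranges overlapped. The median log2 change was -0.87 with the start inside, -0.79 within 200 bases, -0.84 from 201 to 1000 bases and -0.90 beyond. The list holds no fall smaller than -0.63, so this cannot show that the fall is independent of position.

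**Figure D2:**
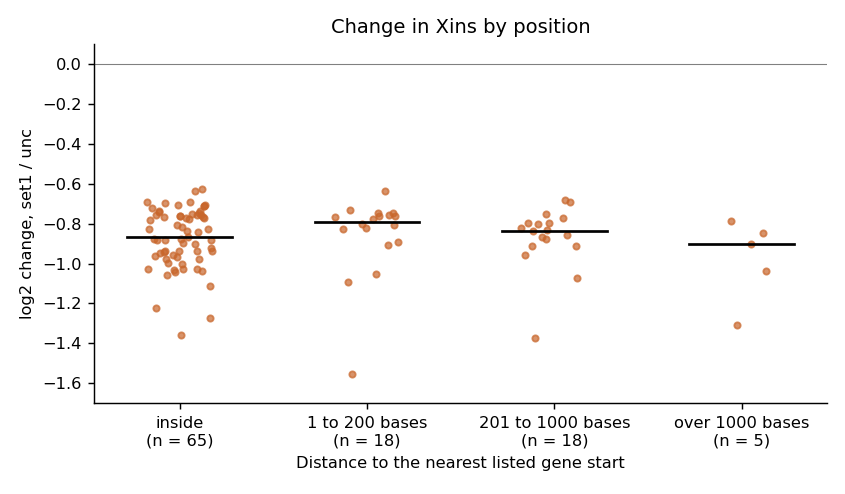
The limma log2 change after *set1* RNAi in Xins by the distance from the region to its nearest listed gene start; each point is a region and each bar the median of its class. The medians are -0.87, -0.79, -0.84 and -0.90, and every class spans much of the range of the others.

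The 5 regions farthest from a listed start were spread over 5 scaffolds. The farthest, v31.000454, 21301 to 22300, lay 17729 bases from its gene start, and its counts were 52.9 and 39.7 after RNAi against 76.8 and 82.7 (log2 change -0.79 ± 0.21). At v31.004123, 7301 to 8600, 4565 bases away, they were 44.6 and 35.7 against 79.6 and 71.5 (-0.90 ± 0.22). These falls lay within the range of those at starts. The other 3, at v31.000244, v31.000684 and v31.003829, lay 2556, 1935 and 1281 bases away and changed by -1.04, -0.84 and -1.31.

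Regions were short. Their length ran from 1000 to 1900 bases in steps set by the scan, with a median of 1100, and 42 of 106 (39.6%) had the shortest length. Long regions had higher counts, since the median control count was 69.4 at 1000 bases and 99.2 at the 7 regions of 1600 bases (Spearman's rho over the 106 regions 0.53). Within the list they did not fall more (rho of the log2 change with length -0.06), but the list holds no fall smaller than -0.63. In 22 regions at least 2 gene starts lay within 1000 bases. Inside 6 regions there were 2 starts. The median change was -0.78 with several starts within 1000 bases and -0.84 with 1. The region with the most identifiers, 4, was at v31.000284, 119901 to 120900, and had 55.0 and 43.7 against 77.9 and 88.1 (log2 change -0.75 ± 0.20).

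Only 1 gene identifier occurred with more than 1 region, SMED30013177 on scaffold v31.003829. The region over its start, 29101 to 30100, had 43.6 and 41.2 in the RNAi libraries and 70.1 and 74.6 in the controls (log2 change -0.76 ± 0.22, limma adjusted p = 0.000662). The region 1281 bases away, described among the largest falls, changed by -1.31 ± 0.27. The fall was larger away from the start, but the difference between the regions was not tested, and the standard errors are wide. In whole worms the region of this gene from 27301 to 29400 was lower after *set1* RNAi (2246 and 2174 against 2532 and 2669, log2 change -0.23 ± 0.04, limma adjusted p = 2.26e-08). The one over the start, from 28901 to 30500, was not called, with 1845 and 1804 against 1705 and 1787 (0.06 ± 0.04, limma adjusted p = 0.175). The difference between the materials was not tested.

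The deposited enrichment over input, which sets the immunoprecipitated reads against the input reads of the same group, fell at 98 regions. Its median was 8.54 in the control and 5.39 after *set1* RNAi, and the median of its log2 ratio, -0.72, was close to that of the counts. The highest control enrichments, between 15.3 and 18.6, were at v31.003826, v31.003438, v31.001765, v31.004428 and v31.004354, and all 5 fell, to between 4.48 and 8.52. Enrichment was given for a group and not for a library, so it has no error. It did not follow the counts closely: Spearman's rho over the regions between the log2 change of the counts and that of the enrichment was 0.46, and that between the control enrichment and the control count was -0.02.

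At 8 regions the enrichment was higher after *set1* RNAi although the counts had fallen. The clearest was v31.000415, 80101 to 81500, where the RNAi counts were 75.3 and 69.6 and the control counts 119.1 and 114.3 (log2 change -0.68 ± 0.18), while enrichment went from 8.36 to 13.0. At v31.007107, 16201 to 17600, the counts were 47.6 and 37.0 against 68.1 and 75.5 (-0.76 ± 0.22), and enrichment went from 4.39 to 6.36. In these regions the direction depends on which measure is read. Dividing the mean count by the enrichment gives the level of input that the ratio implies, which fell from 14.0 to 5.58 at the former and from 16.4 to 6.65 at the latter. Over all regions the implied input was lower after RNAi at 71 of 106, with medians of 8.06 after RNAi and 9.25 in the control, and its part in the counts was not tested.

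**Figure D3:**
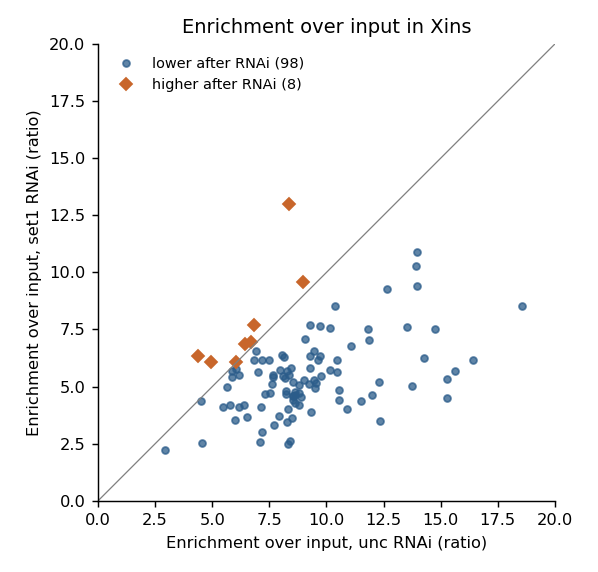
Enrichment over input in the *unc* RNAi control (horizontal) and after *set1* RNAi (vertical), both as ratios, at the 106 regions; the line marks equal values. The enrichment was lower after RNAi at 98 regions (circles) and higher at 8 (diamonds), of which v31.000415 lies farthest from the line, at 8.36 and 13.0.

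The region at v31.033938, 1001 to 2000, stood apart in the other direction. It had the highest count of the list in both RNAi libraries, 87.3 and 84.4, and in the control listed second, 144.6. In the control listed first it had 124.5, below the 137.5 of v31.002536. Its enrichment was the lowest, 2.22 after RNAi and 2.94 in the control. High counts at this locus thus went with a high input level (38.7 and 45.8 implied), the highest in each group.

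In X1 cells, where the *set1* table listed 554 regions, 32 of the 106 Xins regions (30.2%) overlapped a listed region by at least 1 base. Seen from X1, these were 5.78% of its list. All 32 X1 partners were lower after *set1* RNAi and called by limma within that table, in which 99.8% of all regions were called lower. The tables had separate controls and were normalized separately, so the changes stand side by side. At the 32 loci the median log2 change was -0.86 in Xins and -0.84 in X1. The fall was the larger in Xins at 18 and in X1 at 14. At SMED30005554 the X1 region from 44301 to 46400 had 68.9 and 95.4 after RNAi against 174.8 and 186.0 (log2 change -1.14 ± 0.12, limma adjusted p = 1.06e-19), beside -1.55 ± 0.31 in Xins.

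**Figure D4:**
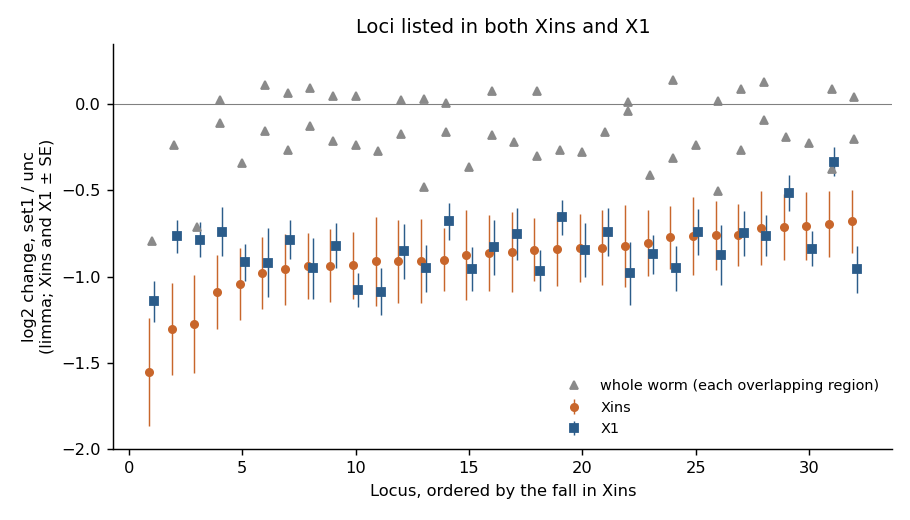
The limma log2 change after *set1* RNAi at the 32 loci listed in both Xins (circles, ± SE) and X1 (squares, ± SE), with every overlapping whole-worm region (triangles), ordered by the fall in Xins. The Xins and X1 values lie between -1.55 and -0.33, and the whole-worm values of the same loci lie closer to 0 than both, except at v31.000515, where X1 is at -0.33 and a whole-worm region at -0.38.

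The X1 partners lay farther from the gene start. Measured to the same gene, the X1 region was farther from the start than the Xins region at 22 of 31 loci, nearer at 3 and at the same distance at 6 (1 X1 region was not paired with the gene). The start of that gene lay inside 13 of the 32 Xins regions and inside 5 of their X1 partners, and the median distance of the 31 X1 partners was 501 bases. At v31.000076, for example, the Xins region lay 40 bases from the start and the X1 region 1040, and at v31.000891 the distances were 176 and 976. The X1 regions were also longer, with a median of 1400 bases against 1100. These are the positions of listed windows, not of the mark as a whole, and no test was made over regions.

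The complete tables differed in the same way. A gene start lay inside 23.6% of the 554 X1 regions (exact binomial interval 20.2% to 27.4%) beside the 61.3% in Xins, and 54.2% of the X1 regions (49.9% to 58.4%) lay 201 to 1000 bases from one, beside 17.0% in Xins (10.4% to 25.5%). The 74 Xins regions without an X1 partner contained a start in 52 cases (70.3%), and the 32 with a partner in 13 (40.6%). Their median log2 changes, -0.82 and -0.86, and median control counts, 76.2 and 82.9, were similar. The median control count was 113.0 normalized units over the X1 list and 77.0 over the Xins list, and what part the signal level has in where a window was listed was not tested.

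**Figure D5:**
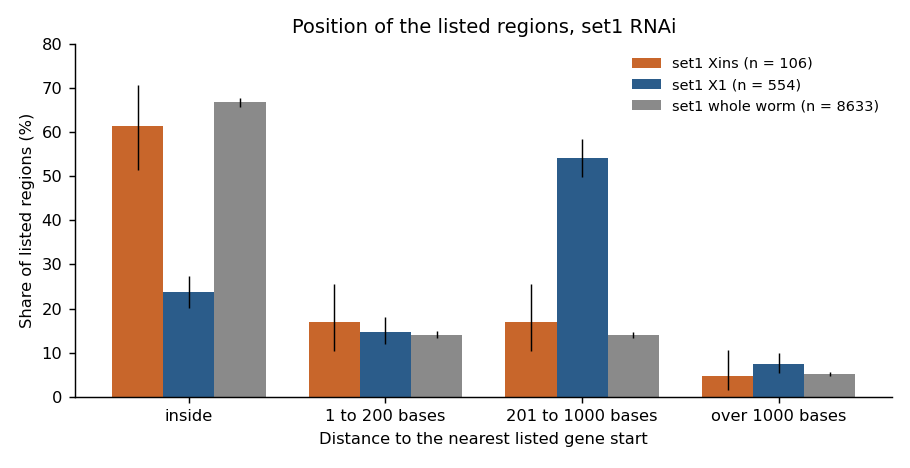
Share of the listed regions by distance to the nearest listed gene start in the *set1* tables of Xins (106 regions), X1 (554) and whole worms (8633); bars start at 0 and the lines are exact 95% binomial intervals, which cover counting error only. The start is inside 61.3% of Xins regions and 23.6% of X1 regions, and 201 to 1000 bases away from 17.0% and 54.2%.

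Nearly all Xins regions lay where the whole-worm table of *set1* RNAi also listed a region: 103 of 106 (97.2%), with 165 whole-worm regions, which were 1.91% of the 8633 listed there. The 3 without one were at v31.001358, v31.006763 and v31.041904. The whole-worm changes at these loci were small. At all 103 loci the Xins region had fallen by more than any of its whole-worm partners, and at only 3 did a whole-worm region fall by 0.5 or more on the log2 scale. The smallest fall in the Xins list was -0.63, while the median log2 change over the whole-worm list was 0.01. The order of the falls was thus largely set by which regions were listed, and it is no measure of a stronger loss in Xins. Whole worms contain Xins and other cells, and the median control count over their list was 850.5 normalized units.

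Limma called a lower whole-worm region at 74 of the 103 loci and a higher one at 22, in a table where 25.8% of regions were called lower and 15.1% higher. Counted over the 166 overlapping pairs, 44.6% were called lower and 13.3% higher. At 61 loci all called partners were lower, at 9 they were higher, and at 13 both occurred. The median log2 change of the 74 called lower partners was -0.19 (range -0.80 to -0.09), beside -0.18 over all regions called lower in whole worms, and that of the 22 called higher was 0.13 (0.09 to 0.17), beside 0.14. The lowered whole-worm regions thus outnumbered the raised ones at these loci more than in the table as a whole, with changes of the usual size. These directions are those of the normalized counts alone. The deposited enrichment over input was higher after *set1* RNAi at 6845 of the 8633 whole-worm regions and lower at 1775, so the direction can depend on the measure. The start of the Xins region's nearest gene lay inside all 22 of the raised partners and inside 24 of the 74 lowered ones. Over the whole table a listed start of any gene, a wider measure, lay inside 89.6% of all raised and 46.7% of all lowered regions.

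The lower and higher whole-worm partners of 1 Xins region divided by their position. At 59 loci both kinds, called or not, were paired with the nearest gene, and the lower one was farther from its start at 41, nearer at 4 and at the same distance at 14. The start of that gene lay inside 55 of these higher partners, 17 of the lower partners and 36 of the Xins regions. The whole table was divided in the same way, since 89.3% of its higher regions and 42.7% of its lower ones, called or not, contained a listed start. At v31.000866 the Xins region from 96301 to 97600 had 59.7 and 78.5 against 118.2 and 117.2 (log2 change -0.77 ± 0.18). The whole-worm region from 96401 to 98000, 318 bases from the start, was lower (1800 and 1614 against 2056 and 2174, -0.31 ± 0.04, limma adjusted p = 9.51e-14). The region from 95301 to 96800, over the start, was higher (1999 and 1900 against 1723 and 1810, 0.14 ± 0.04, limma adjusted p = 0.00148), so that the same Xins window overlapped whole-worm regions of both directions.

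All 32 loci shared by Xins and X1 also overlapped a lower whole-worm region. The locus of SMED30005554 led these in each material, and in whole worms it had 586.7 and 528.5 after RNAi against 926.3 and 1011 (log2 change -0.80 ± 0.05, limma adjusted p = 3.18e-55). At v31.002441 the changes were -1.27 ± 0.28 in Xins, -0.79 ± 0.10 in X1 and -0.71 ± 0.04 in whole worms. These were followed by v31.001196, with -0.76, -0.88 and -0.50, and by v31.005926, with -0.91, -0.95 and -0.48. At the next 6 of the 10 loci ranked by the smallest of their 3 falls (v31.000891, v31.003120, v31.004356, v31.000515, v31.000866 and v31.000684) that fall lay between -0.37 and -0.30, except at v31.000891, where it was -0.41. The smallest was that of whole worms at 9 of these 10 loci and that of X1 at v31.000515 (-0.33 ± 0.09).

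No Xins region of the *set1* table overlapped any of the 12 regions that the *mll* table listed in Xins, also when a gap of 1000 bases was allowed, and none of the nearest genes was shared. The lists thus had 0% of either in common, but a list of 12 regions is too short for this to show that they differ. In X1, 8 of the 106 regions (7.55%) overlapped a listed *mll* region, 2.61% of the 306 there, and limma called 5 of these lower and 2 higher, in a table where 92.2% were called lower and 6.54% higher. At v31.003246 the mark was lower after either treatment: the Xins region from 43601 to 45000 had 40.0 and 29.6 after *set1* RNAi against 69.4 and 82.2 (log2 change -1.11 ± 0.23), and the X1 region from 43401 to 45100 had 24.0 and 22.8 after *mll* RNAi against 119.4 and 92.0 (-2.12 ± 0.18). At v31.004915 they moved apart, since the Xins region had 57.1 and 48.1 against 101.0 and 87.3 after *set1* RNAi (-0.83 ± 0.19) and the X1 region had 243.7 and 244.2 against 201.1 and 182.4 after *mll* RNAi (0.35 ± 0.06). The treatments differed in days of feeding, material and libraries, so the gene and these conditions cannot be told apart.

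In whole worms after *mll* RNAi, 100 of the 106 regions had an overlapping region. Limma called a higher one at 38 loci and a lower one at 9 (31.9% and 7.56% of the 119 pairs), in a table where 10.9% of regions were called higher and 26.3% lower. The median change of the 38 was 0.11, a small rise. At the *set1* Xins regions the whole-worm count was thus called higher more often than lower after *mll* RNAi. This was the reverse of the table as a whole and of *set1* RNAi in whole worms. The enrichment over input was higher after *mll* RNAi at 1559 of the 5169 whole-worm regions and lower at 3596.

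The table of untreated cells, which was read as far as scaffold 1565 in the second of its runs, listed a region at 16 of the 106 loci. In all, 33 members lay on scaffolds up to that number, some of them in a later run of the Xins table. On scaffolds that the table of untreated cells lists there were 25 members. The table's name puts X1 before Xins, and its change was read in that order. Limma called H3K4me3 higher in X1 at 12 and higher in Xins at 2, in a table with 56.2% and 32.1% called in these directions. None of the 14 partners that were higher in X1, called or not, contained the start of the nearest gene, and the median distance was 565.5 bases. Of all regions higher in X1, 36.5% contained a listed start of any gene, which is a wider measure. At v31.000945 the untreated region from 72201 to 75200, 535 bases from the start, had 194.1 and 199.5 in X1 against 70.9 and 86.7 in Xins (log2 change 1.32 ± 0.15, limma adjusted p = 0.00509), and the *set1* Xins region from 71601 to 73000, over that start, had 74.9 and 58.9 against 107.7 and 115.1 (-0.74 ± 0.19). The 2 loci higher in untreated Xins were v31.000064, with 85.4 and 102.7 in X1 against 186.9 and 169.8 in Xins (-0.92 ± 0.15), and v31.000284, with 94.5 and 103.8 against 141.3 and 145.0 (-0.53 ± 0.12), and a start lay inside both.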

How the data were processed

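The report rests on the authors' diffReps table of *set1* against *unc* RNAi in Xins and, beside it, the other 6 tables. The authors deposited for each region the normalized read count of both libraries of a group in 1 cell, their mean (a signal scaled between libraries by a method that is not stated) and the enrichment over input as a ratio, a linear fold. Their log2 fold changes, p-values and adjusted p-values, and their window coordinates, were not used. The submitters' processing notes name CASAVA 1.8.2, Bowtie and MACS2. For the genome build, the diffReps settings and the gene models, details are not given in the sources used here. Positions are 1-based on scaffolds whose names begin with v31, and no sequence was used.

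Cells were split at the semicolon, and a region was counted once for each scaffold, start and end. Changes are differences of log2(normalized count + 1), a scale on which the pseudocount of 1 slightly understates folds. They were tested with limma 3.58.1 in R 4.3.3 (empirical Bayes, trend on the mean except for the 12 *mll* Xins regions, Benjamini-Hochberg at 0.05 within a table). The fit was also run on simulated data with independent noise in each region, which lack the shared offset between the RNAi libraries. Reads were recovered where the values of a block of scaffolds were whole multiples of 1 step within 0.0075, in 7 of 12 blocks. Overlap meant at least 1 shared base, and a gene start counted as at a region within 1000 bases. Exact binomial intervals and counts used Python 3.11.15 with scipy 1.17.1.

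Regions named were, by rule, those at the extremes of fall, control level, length, distance, gene number and enrichment, those lowered in 3 materials or opposed in another table, and the gene with several regions. Ties in length were broken by control level, and loci outside the rule were picked after their values were seen. The members and lists were chosen with earlier results of these data known. Alternatives were other pseudocounts, a minimum mean count of 50, no trend, a threshold of 0.01, a binomial test on recovered reads, each library left out, and other limits on overlap and distance.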

Additional observations from a re-analysis of the deposited data

Results flagged for a closer look

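At 5 loci the mark was lower in Xins and higher in an overlapping whole-worm region after *set1* RNAi, with both RNAi libraries on the same side of both controls in each table; they are the largest whole-worm rises among 22 such loci. The whole-worm log2 change was 0.17 at v31.003246 (1324 and 1332 against 1190 and 1167), beside -1.11 in Xins, and 0.17 at v31.033938 (2798 and 2844 against 2516 and 2508), beside -0.64. It was 0.15 at v31.003233, where the Xins change was -0.77, 0.15 at v31.000945, where it was -0.74, and 0.14 at v31.000866, where it was -0.77. At 3 of these loci another overlapping whole-worm region was called lower by limma, by -0.34 at v31.000945 (adjusted p = 2.39e-11), -0.31 at v31.000866 (adjusted p = 9.51e-14) and -0.13 at v31.003233 (adjusted p = 0.00756), so whole worms did not move in 1 direction there. The difference between the materials was not tested, since the tables were normalized separately, and all 5 rises are small beside the falls in Xins.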

How the results depend on the processing

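The limma count of 106 regions ranged from 0 to 106 when single libraries were left out. It was 106 and 105 without the RNAi library listed first or second, 37 without the control listed first and 0 without the control listed second. At an unadjusted p-value below 0.05 these last fits had 79 and 68 regions, and all 106 stayed lower in each of the 4. The spread that limma used rose from 0.21 with all libraries to 0.32 and 0.31 without a control and was 0.13 without an RNAi library. The lone library is assumed to vary like the other group. The median log2 change stayed between -0.98 and -0.70 in these fits. Other pseudocounts, no trend and a threshold of 0.01 gave 105 or 106 calls, and the binomial test, which allows for counting error alone, called all 91 regions with recovered reads. A minimum mean of 50 normalized counts left 87 regions, all called. Overlap and distance limits moved no count by more than 1.5 times; 50% of the shorter region left 25 of the 32 X1 loci and 11 of the 16 untreated ones. Of 357 values of named regions under alternatives 87 lost their call, 86 of them without a control library, and 0 changed direction. No paired analysis was possible because the values within a cell carry no replicate number, so a fit with the replicate block was not run. Low read counts limit the precision of each region: they ran from 22 upward per library at the 91 regions with recovered reads. At the other regions the reads are unknown, and the normalized counts went down to 14.4. Regions not listed were not analysed here.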
